A study of Homo sapiens with 8 samples.

Results

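Chromosome 19 carries 240 protein-coding genes in GENCODE release 44 whose symbol is ZNF followed by a number, and 204 of them are described here. They were taken by symbol and position, as the genes of this kind that the table of normalized counts lists among its 19118 genes, with ZNF473 left out. Another 35 were not listed because their counts, summed over all libraries, did not exceed 80. The data were RNA-seq libraries of HEK293T, a line from human embryonic kidney with the large T antigen of SV40, of which 4 came from cells given 100 µM DZNep for 48 h and 4 from cells given vehicle (Control) over the same time. DZNep (3-deazaneplanocin A), an analog of adenosine, blocks S-adenosylhomocysteine hydrolase, so that a product inhibitor of methyltransferases builds up. All 8 libraries were of 1 cell line, grown in DMEM by the sample labels and in RPMI by the published methods, with replicate numbers 1 to 4 in both groups. The published text calls the replicates biological, and how the cultures were kept apart is not given in the sources used here, so p-values measure the spread between these libraries.

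Most genes of this family encode a KRAB box, which recruits the corepressor TRIM28 (KAP1), followed by an array of C2H2 zinc fingers that reads DNA. TRIM28 brings the histone H3 lysine 9 methyltransferase SETDB1 and heterochromatin protein 1, and many of the fingers bind retrotransposons. The genes arose by repeated tandem duplication and lie in clusters of related copies, and their own 3′ exons can carry histone H3 lysine 9 methylation. By pattern in the reference proteins, a KRAB box was found in 171 of the 203 members that could be tested.

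Libraries held 25043058 to 44902779 counts, of which the members took 0.209% to 0.266%. In both groups replicates 1 and 4 had a larger mitochondrial share than replicates 2 and 3, 7.04% to 13.7% against 3.02% to 4.44%. The HEK293T markers VIM, CDH2, NEFM, NEFL, LHX1, PAX2 and EYA1 were measured, with normalized counts of 134 or more in every library. The groups of VIM, CDH2, NEFM and NEFL overlapped. Those of LHX1, PAX2 and EYA1 did not, with log2 fold changes of -1.43, -0.54 and 0.84 (adjusted p = 0.00593, 0.0228 and 0.0046 by edgeR's test). Of the markers of other cell types, HBB was at 0 throughout, ALB and APOA1 stayed at or below 19.1, and CD3E was at 0 in the Control libraries and between 8.16 and 40.5 in the DZNep libraries. PTPRC was at 36.7 to 77.7. Of the fibroblast markers, COL1A1 was at 2248 to 4682 and DCN at 70.1 to 220, and COL1A2 was at 15.3 in DZNep replicate 2 and at 898 to 2167 in the other libraries. PTPRC and these 3 had groups that overlapped.

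Each gene was tested with edgeR's quasi-likelihood test across 19171 genes. Below, rose and fell are used for an adjusted p under 0.05, and passing both thresholds means an absolute log2 fold change over 1 as well. Values for single genes are normalized counts, which are counts divided by a size factor of the library.

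The promoters of 2 clusters are shown first. These clusters had the lowest and the highest median log2 fold change of the clusters with at least 5 tested members. Whether promoter sequence bears on the change was not tested. RefSeq promoters on GRCh38.p14, from 250 bases before to 50 bases after the gene start, were matched by symbol for 185 of the 204 members. In the cluster from ZNF101 to ZNF254, which fills 4.46 Mb of the short arm up to the centromere (chr19:19668796-24129968), all 23 promoters that were matched held CCAAT on either strand, against 35.7% of 27305 RefSeq promoters. The 12-base word found in the largest number of these promoters, GTCCAATCAGGC, was present in 15 of 23, against 1 of 162 promoters of members elsewhere and 0.11% of all promoters. It contains CCAAT, so the counts of these 2 words overlap. In each of the 15 promoters its first copy began between 53 and 60 bases before the gene start. The promoter of ZNF675 holds a further copy nearer the start. Below are windows of 92 bases around it, read 5′ to 3′ along the gene, with the 12-base word in capitals. The last 3 genes lack it, and CCAAT is in capitals there. ZNF429 and ZNF85 were lower with DZNep, and ZNF14 was higher. The windows shown are a selection, made with the values seen, in which genes that fell are the larger part. Of the 15 genes with the 12-base word 9 fell (60%), where 21.8% of all genes tested did. ZNF93, ZNF486, ZNF737, ZNF724 and ZNF675 also hold it, did not pass the test and are not shown.
ZNF66, chr19:20776205-20776296, plus strand: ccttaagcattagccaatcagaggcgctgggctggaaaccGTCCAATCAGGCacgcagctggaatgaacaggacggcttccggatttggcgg
ZNF430, chr19:21020558-21020649, plus strand: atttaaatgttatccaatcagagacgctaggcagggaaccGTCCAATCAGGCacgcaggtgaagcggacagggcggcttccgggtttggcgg
ZNF714, chr19:21082103-21082194, plus strand: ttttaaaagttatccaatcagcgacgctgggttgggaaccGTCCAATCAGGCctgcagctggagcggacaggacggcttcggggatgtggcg
ZNF431, chr19:21141940-21142031, plus strand: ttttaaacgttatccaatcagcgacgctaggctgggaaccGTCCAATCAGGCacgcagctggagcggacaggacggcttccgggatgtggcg
ZNF100, chr19:21767581-21767672, minus strand: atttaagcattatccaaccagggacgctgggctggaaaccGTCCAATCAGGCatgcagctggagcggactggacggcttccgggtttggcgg
ZNF91, chr19:23395480-23395571, minus strand: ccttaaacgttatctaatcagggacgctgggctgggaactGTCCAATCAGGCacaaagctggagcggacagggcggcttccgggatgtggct
ZNF681, chr19:23758899-23758990, minus strand: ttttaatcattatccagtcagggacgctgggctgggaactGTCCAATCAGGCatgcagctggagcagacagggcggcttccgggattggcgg
ZNF254, chr19:24087093-24087184, plus strand: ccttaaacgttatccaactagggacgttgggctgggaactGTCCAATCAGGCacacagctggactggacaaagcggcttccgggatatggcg
ZNF85, chr19:20923157-20923248, plus strand: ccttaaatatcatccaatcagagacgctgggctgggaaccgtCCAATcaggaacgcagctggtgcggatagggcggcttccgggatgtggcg
ZNF429, chr19:21505531-21505622, plus strand: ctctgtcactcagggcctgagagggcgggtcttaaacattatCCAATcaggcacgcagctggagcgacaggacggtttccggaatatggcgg
ZNF14, chr19:19733116-19733207, minus strand: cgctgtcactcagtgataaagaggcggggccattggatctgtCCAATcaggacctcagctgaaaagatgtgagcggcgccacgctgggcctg
Aligned on the first copy of the word without gaps, the 14 other windows that hold it were between 34.8% and 87% identical to that of ZNF430, with a median of 81.5%. The 34.8% is that of ZNF675, whose further copy was not used for the alignment, and the next lowest was 60.9% for ZNF93. A match is a description of letters and not a binding site. The RefSeq start lies within the GENCODE gene for ZNF429 and ZNF254, 8.92 and 53.78 kb downstream of its GENCODE start, so that these windows stand before an inner start.

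The cluster from ZNF575 to ZNF296 on the long arm (chr19:43525497-45076478) had other promoters. CCAAT was found in 4 of its 20 matched promoters, whereas ACTACA, searched on both strands, was found in 12 of 20 and in 8.95% of all promoters. Neither word was particular to 1 cluster. ACTACA was also in 26 of 48 promoters of the ZNF628 to ZNF446 cluster and in 10 of 23 of ZNF565 to ZNF573. CCAAT was also in 15 of 17 promoters of the ZNF653 to ZNF791 cluster. The most common 12-base word of the ZNF575 to ZNF296 promoters was GAATTCTGGGAA, in 9 of 20 and in 0.0916% of all. Its first copy began 29 to 123 bases before the gene start. The 9 tested members with this word had a median log2 fold change of 0.36, and 2 of them rose (22.2%). The 11 whose matched promoter lacks it had a median of 0.66, and 5 of them rose (45.5%), where 19.1% of all genes did. Whether the word bears on the change was not tested. Windows around it for ZNF226 and ZNF112, which rose, and for ZNF224, which did not pass the test, show that word in capitals. The 120 bases before the start of ZNF227 and ZNF404, which rose and lack it, are shown with CG in capitals. These are RefSeq starts, which lie 4.99 kb (ZNF227), 17.42 kb (ZNF404) and, for the window of ZNF112, 10.51 kb downstream of the GENCODE start.
ZNF226, chr19:44165002-44165093, plus strand: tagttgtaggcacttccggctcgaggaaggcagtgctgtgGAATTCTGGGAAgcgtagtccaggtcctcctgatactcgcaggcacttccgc
ZNF112, chr19:44356754-44356845, minus strand: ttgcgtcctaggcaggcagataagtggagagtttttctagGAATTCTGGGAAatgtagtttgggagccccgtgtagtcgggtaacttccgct
ZNF224, chr19:44094217-44094308, plus strand: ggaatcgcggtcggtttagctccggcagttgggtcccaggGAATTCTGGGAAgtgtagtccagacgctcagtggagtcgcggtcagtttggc
ZNF227, chr19:44212412-44212531, plus strand: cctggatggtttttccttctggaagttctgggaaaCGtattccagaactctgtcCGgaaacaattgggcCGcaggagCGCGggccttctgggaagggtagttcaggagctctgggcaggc
ZNF404, chr19:43883965-43884084, minus strand: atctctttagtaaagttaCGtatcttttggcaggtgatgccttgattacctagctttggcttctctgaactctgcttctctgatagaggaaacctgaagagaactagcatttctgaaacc

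Over the whole family, the shares that passed both thresholds were below those of all genes. Of 203 tested members, 11 were higher and 21 were lower with DZNep at both thresholds, or 5.42% and 10.3%, against 10.6% and 13.5% of all genes tested. By adjusted p alone 34 rose and 43 fell, where 19.1% and 21.8% of all genes did so. With a block for the replicate number, these counts became 60 and 54, or 29.6% and 26.6%, against 28.8% and 30.2% of all genes. Every DZNep library lay above every Control library for 34 members and below for 37, compared with 19.5% and 19.4% of all genes. The median log2 fold change was -0.00 over the members and -0.03 over all genes tested, and 101 members had a positive and 102 a negative value. These libraries are of whole cultures, so that fewer cells of one kind and less RNA per cell cannot be told apart.

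The 216 tested ZNF genes of other chromosomes had 15 higher and 20 lower at both thresholds and a median of 0.02. By adjusted p alone 52 of them rose (24.1%) and 45 fell (20.8%), and the difference from the members was not tested. Among 876 other protein-coding genes of chromosome 19, 108 were higher and 74 were lower, with a median of 0.03. Summed over the 204 members, the normalized level was 94838, 82084, 86034 and 91673 in Control replicates 1 to 4. In DZNep replicates 1 to 4 the sum was 87721, 96026, 88424 and 92642, so that the groups overlapped. Single clusters had medians on either side of 0.

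**Figure D1:**
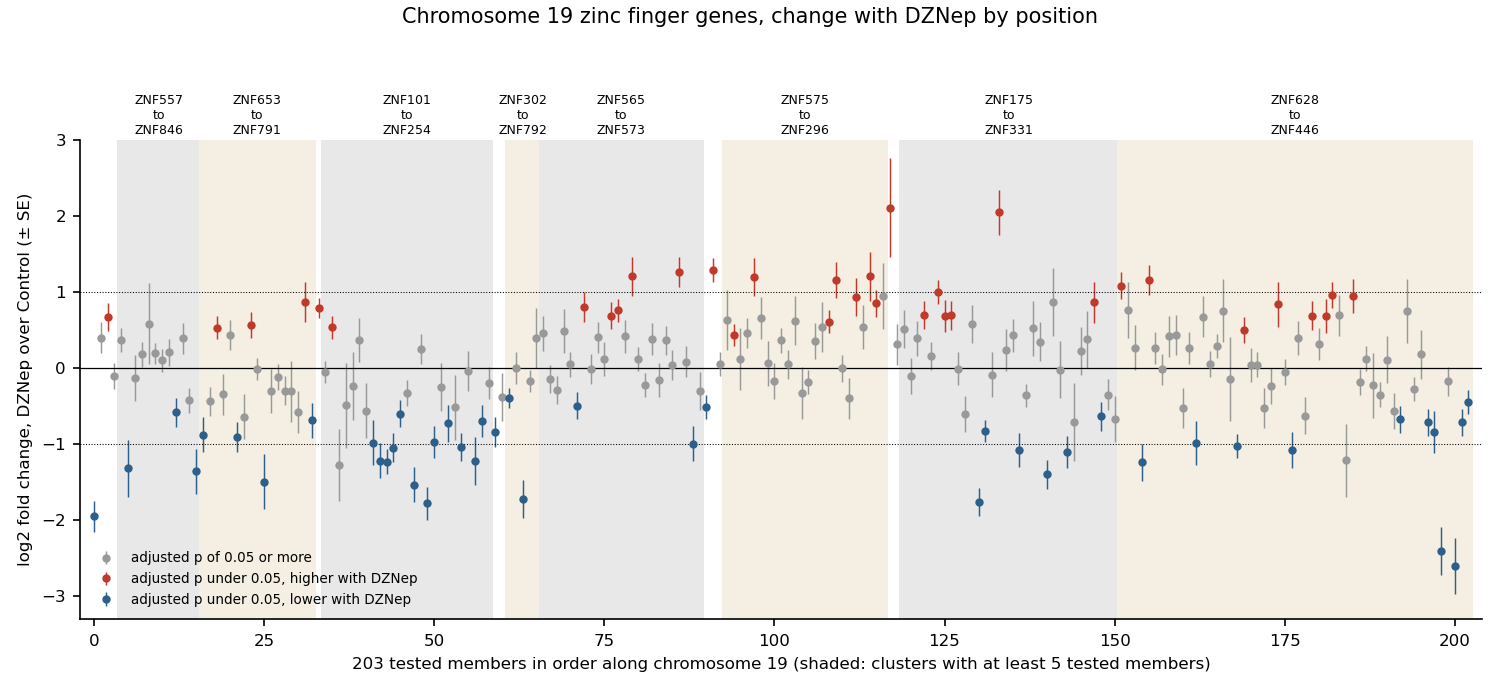
Log2 fold change of DZNep over Control with its standard error (y axis) for the tested members, placed by their order along chromosome 19 (x axis), with clusters of at least 5 tested members shaded and dotted lines at 1 and -1. In the ZNF101 to ZNF254 cluster 22 of 25 points lie below 0, and in the ZNF575 to ZNF296 cluster 19 of 24 lie above it.

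Clusters were set by a gap of over 1 Mb between neighbours, which gave 8 clusters with at least 5 tested members. The ZNF101 to ZNF254 cluster had the lowest median of these, -0.60. Of its 25 tested members 12 fell (48%) and 1 rose (4%), against 21.8% and 19.1% of all genes tested. At both thresholds 7 fell (28%, against 13.5% of all genes). None rose at both thresholds by edgeR's quasi-likelihood test, by DESeq2 or by limma, and 1 member was higher at an unadjusted p under 0.05. In 9 members (36%, against 19.4% of all genes) all DZNep libraries lay below all Control libraries. The median of the members' log2 ratios was negative in each pair of libraries with the same number, at -0.72, -0.56, -0.67 and -0.67. The summed normalized level was 11827, 9434, 9894 and 10312 in the Control libraries and 5946, 7084, 6630 and 5872 in the DZNep libraries. All DZNep sums were lower than any Control sum.

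ZNF430 (ENSG00000118620, chr19:21020634-21060050), a KRAB zinc finger gene with 11 fingers, had normalized counts of 1005, 679, 859 and 969 in the Control libraries and 327, 432, 390 and 378 in the DZNep libraries. The means were 878 ± 147 and 382 ± 43.0 (SD, n = 4 each). This was a log2 fold change of -1.23 ± 0.17 (SE, adjusted p = 0.000317). The groups did not overlap. ZNF429 (ENSG00000197013, chr19:21496682-21556270) had the lowest log2 fold change of the cluster, -1.78 ± 0.21 (adjusted p = 0.000152). Its counts were 455, 292, 256 and 313 in the Control libraries and 95.2, 106, 103 and 85.5 in the DZNep libraries, so that the highest treated library was well under the lowest control. ZNF738 (chr19:21358930-21388582) went from 931, 493, 627 and 883 to 248, 217, 243 and 325, a log2 fold change of -1.53 ± 0.23 (adjusted p = 0.000543), again without overlap. For this gene 24.1% of the 100-base words of its canonical transcript also occur in other annotation, of which ENSG00000213976 shares the most. The unique reads behind its count may thus cover it in part.

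ZNF91 (ENSG00000167232, chr19:23304991-23395471) encodes a long array, in which 32 fingers were found, and is known as a repressor of SVA retrotransposons. It was measured at 811, 513, 565 and 777 in the Control libraries and at 313, 342, 329 and 341 in the DZNep libraries. The groups stood clearly apart, with means of 667 ± 149 and 331 ± 13.6 (SD, n = 4 each). On the log2 scale the fold change was -1.03 ± 0.18 (adjusted p = 0.00122), close to the fold threshold, and it came to -0.94 with library sizes alone. ZNF714, the member of the cluster with the highest level per kilobase of exon, fell from 3129, 2010, 1883 and 2922 to 1106, 1334, 1181 and 1295 (log2 fold change -1.04 ± 0.19, adjusted p = 0.00164), and its groups did not overlap either. ZNF85 and ZNF681 completed the 7 that passed both thresholds, with log2 fold changes of -1.21 and -1.22.

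Along the cluster, 5 neighbouring members from ZNF66 to ZNF431 all fell (ZNF66, ZNF85, ZNF430, ZNF714 and ZNF431), which was the longest run of adjacent members with an adjusted p under 0.05 in 1 direction on the chromosome. The log2 fold changes in this run were between -1.23 for ZNF430 and -0.60 for ZNF431. ZNF100, ZNF492 and ZNF726 also fell, by 0.97, 0.72 and 0.69 on the log2 scale. Near the ZNF101 end of the cluster ZNF14 rose, from 355, 310, 393 and 301 to 507, 535, 512 and 457 (log2 fold change 0.54 ± 0.15, adjusted p = 0.0149), with every DZNep library above every Control library. ZNF675 and ZNF101 had log2 fold changes of -0.03 and -0.05 and did not pass the test. ZNF93, known as a repressor of LINE-1 elements, was at 7.71 to 26.9 in Control and at 3.22 to 19 in DZNep libraries, which overlap. These genes other than ZNF91, ZNF429 and ZNF738 were singled out after their values were seen.

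**Figure D2:**
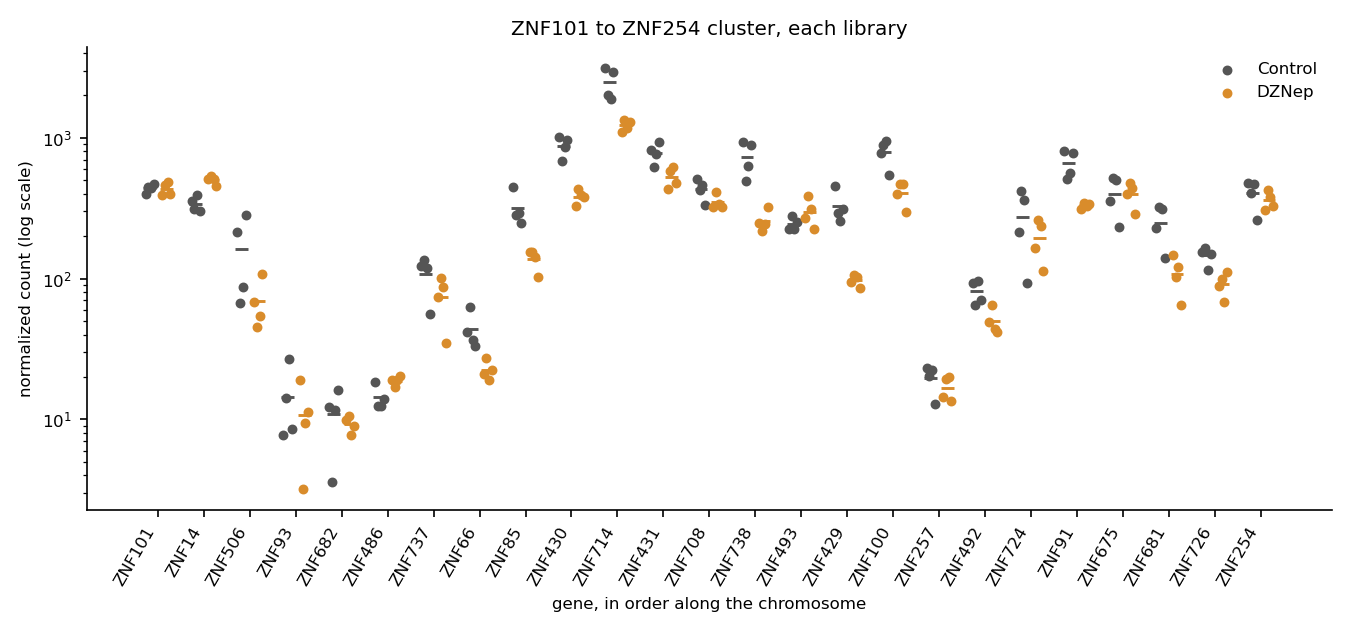
Normalized counts on a log scale (y axis) of the 25 members of the ZNF101 to ZNF254 cluster in chromosome order (x axis), with 4 Control and 4 DZNep libraries as points and the group mean as a bar. For 9 genes, ZNF430 and ZNF91 among them, every DZNep point lies below every Control point, and for ZNF14 every DZNep point lies above.

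The 15 tested members of the cluster whose promoter holds GTCCAATCAGGC had a median log2 fold change of -0.69. Of these 9 fell (60%) and 0 rose by edgeR's test (9 and 0 at an unadjusted p under 0.05, 9 and 0 by DESeq2 and by limma). Of the 8 members whose matched promoter lacks it, 2 fell (25%) and 1 rose (12.5%), with a median of -0.24. Of all genes tested, 21.8% fell and 19.1% rose. Outside the cluster, 9 tested genes held the word, of which 22.2% fell and 11.1% rose, with a median of -0.11. Of these, ZNF195 and ZNF695 on other chromosomes fell (log2 fold changes -0.49 and -0.47) and the chromosome 19 member ZNF136 rose (0.57 ± 0.17, adjusted p = 0.0216). The word was chosen for its frequency in the cluster's promoters, and whether it bears on the change was not tested. In the ZNF175 to ZNF331 cluster, the 12 tested members with its own most common 12-base word had a median of -0.47. Of these 4 fell (33.3%) and 0 rose by edgeR's test (1 at an unadjusted p under 0.05). The 16 without it had a median of 0.29, and 1 fell (6.25%) and 6 rose (37.5%). Medians with and without such a word were closer in ZNF628 to ZNF446 (0.05 and -0.08) and ZNF653 to ZNF791 (-0.37 and -0.30). CG dinucleotides were few in the promoters of the ZNF101 to ZNF254 cluster, with a median of 10 per 300 bases against 21 over the 185 members and 14 over all RefSeq promoters. The cluster's transcripts also had a median GC content of 37.2%, the lowest of the 8 clusters, and the part of either value in the shift was not tested. Within the cluster's bounds, 1 other protein-coding gene was tested (log2 fold change 0.48). Of 10 genes of other biotypes 4 fell (40%) and 1 rose (10%), with a median of -0.54. Another 12 annotated genes of this cluster were below the count limit of the normalized table.

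The ZNF575 to ZNF296 cluster lay on the other side of 0, with a median of 0.50. Of 24 tested members 7 rose (29.2%, against 19.1% of all genes tested) and 0 fell, where 21.8% of all genes did. At both thresholds 3 rose, and this share of 12.5% was near the 10.6% of all genes. No member fell at an unadjusted p under 0.05 either, nor by DESeq2 or limma. In 9 members (37.5%) every DZNep library lay above every Control library, and in 0 every one lay below, against 19.5% and 19.4% of all genes. The medians of the log2 ratios by pair were 0.38, 0.70, 0.55 and 0.69. The summed level was 10010, 6608, 7379 and 10826 in the Control libraries and 11243, 11491, 10509 and 13866 in the DZNep libraries, so that the lowest DZNep sum was below the highest Control sum. With a block for the replicate number, 13 of the 24 rose, where 28.8% of all genes did.

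ZNF227 (ENSG00000131115, chr19:44207547-44237268), with a KRAB box and 18 fingers, was at 402, 506, 563 and 252 in the Control libraries and at 954, 1099, 1070 and 808 in the DZNep libraries. All treated libraries exceeded all controls, and the log2 fold change was 1.16 ± 0.24 (SE, adjusted p = 0.00318). Without Control replicate 4, its lowest library, it was 0.97. Of its exonic bases 19.1% overlap the neighbouring ZNF235, and the counting is not stated to use strand. ZNF404 (ENSG00000176222, chr19:43872365-43901385) was counted at 83.2, 41.1, 60.9 and 75.2 and rose to 163, 151, 128 and 164 (log2 fold change 1.20 ± 0.25, adjusted p = 0.00327), without overlap, and 17.6% of its exonic bases overlap another annotated gene. ZNF229 (ENSG00000278318, chr19:44417519-44448578) of whose exonic bases 8.87% overlap another gene, had low counts throughout, with 35.5, 28.6, 42.1 and 16.1 in Control and 76.2, 92.6, 68.2 and 50.6 in DZNep libraries. The groups were separate here too (log2 fold change 1.21 ± 0.33, adjusted p = 0.0141), and without Control replicate 4 the value was 0.99.

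Smaller increases were found for ZNF112, ZNF180, ZNF226 and ZNF576, with log2 fold changes of 0.94, 0.85, 0.61 and 0.44. ZNF224, which is known for repression of the aldolase A gene, had normalized counts of 279, 248, 262 and 326 in Control and 224, 244, 272 and 264 in DZNep libraries. The groups overlapped (log2 fold change -0.18 ± 0.16, adjusted p = 0.398). ZNF428 was among the 5 members with the highest mean normalized count, and its libraries differed by replicate number, with 5058, 1758, 2429 and 6363 in Control and 4135, 3094, 3240 and 6914 in DZNep libraries. It was high in replicates 1 and 4 of both groups, the libraries with the larger mitochondrial share, and its log2 fold change of 0.13 ± 0.41 did not pass the test. The other 19 protein-coding genes tested within the bounds of this cluster had a median of -0.10, with 5 that rose and 2 that fell.

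**Figure D3:**
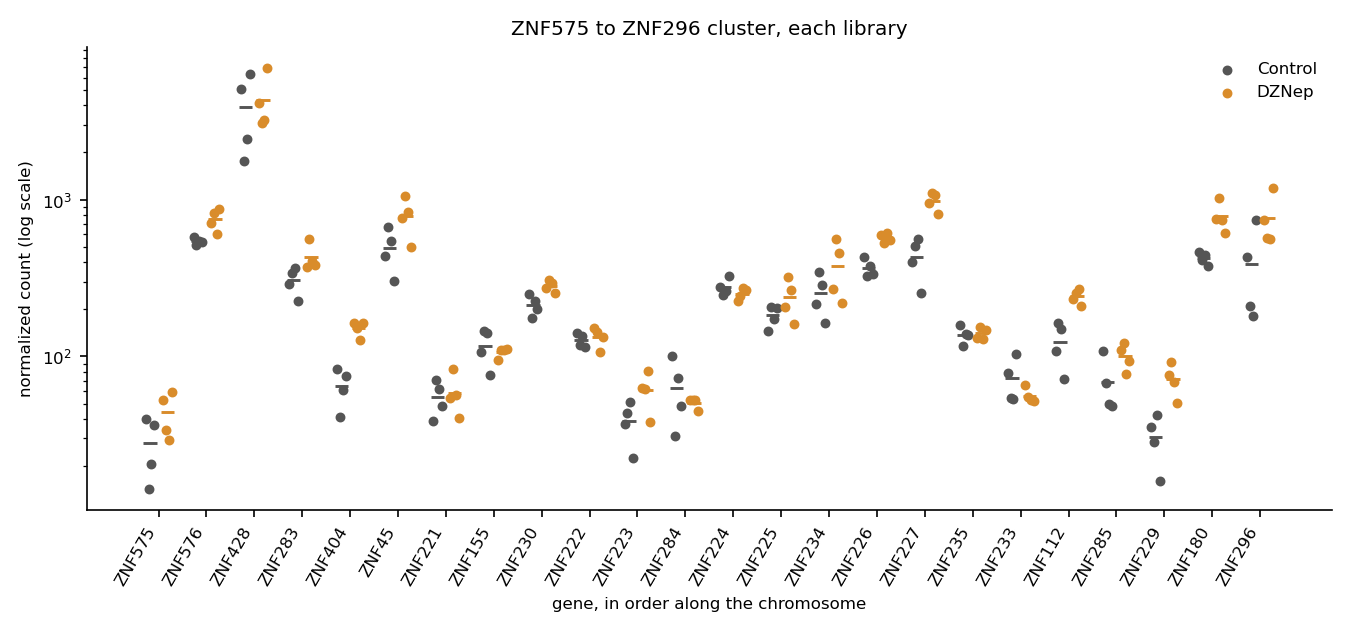
Normalized counts on a log scale (y axis) of the 24 members of the ZNF575 to ZNF296 cluster in chromosome order (x axis), with 4 Control and 4 DZNep libraries as points and the group mean as a bar. For 9 genes every DZNep point lies above every Control point, ZNF227 and ZNF404 among them, whereas ZNF428 spreads widely within both groups.

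The remaining clusters did not lean as far to 1 side. Beside their counts stand 19.1% of all genes tested that rose and 21.8% that fell. In the ZNF565 to ZNF573 cluster on the long arm, 5 of 24 members rose (20.8%) and 2 fell (8.33%), with a median of 0.12. Here ZNF420, a KRAB protein known to restrain p53-dependent apoptosis genes, was at 415, 455, 481 and 216 in Control and at 918, 1115, 966 and 693 in DZNep libraries. Its groups did not overlap (log2 fold change 1.21 ± 0.25, adjusted p = 0.00359). ZNF540 rose from 54.0, 66.1, 59.1 and 51.6 to 161, 150, 135 and 120 (1.26 ± 0.20, adjusted p = 0.000694), also without overlap. ZNF146, an unusual member that consists of fingers with no KRAB box, had 5727, 6211, 7115 and 4173 in Control and 4950, 6328, 5179 and 5022 in DZNep libraries, which overlap. ZNF382, which is silenced by promoter methylation in several tumours, fell by 0.49 on the log2 scale (adjusted p = 0.0482), and ZNF568 had a log2 fold change of 0.42 (adjusted p = 0.145, and 0.0304 with a block for the replicate number).

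In the ZNF175 to ZNF331 cluster 6 of 32 members rose and 6 fell (18.8% each, against 19.1% and 21.8% of all genes), with a median of 0.19. Neighbours ZNF615, ZNF614 and ZNF432 rose, with log2 fold changes of 1.01, 0.69 and 0.70, and ZNF766 and ZNF480, next to each other, fell. ZNF766 (ENSG00000196214, chr19:52269587-52296046) was at 538, 491, 417 and 626 in Control and at 150, 160, 183 and 132 in DZNep libraries (log2 fold change -1.75 ± 0.18, adjusted p = 7.44e-05). The treated libraries lay far below the controls. Only a little further on, ZNF528 (ENSG00000167555, chr19:52397849-52418412) showed the opposite, but at low counts. It had 13.9, 13.4, 11.6 and 8.59 in Control and 47.2, 65.2, 46.6 and 42.7 in DZNep libraries. No library of 1 group reached the other (2.06 ± 0.30, adjusted p = 0.000427). ZNF320 fell from 259, 194, 186 and 259 to 82.5, 82.2, 90.7 and 92.2 (-1.39 ± 0.19, adjusted p = 0.000311), and ZNF83 and ZNF160 passed both thresholds as well. ZNF808, a gene needed for pancreas development, and the imprinted ZNF331 did not pass the test, with log2 fold changes of 0.24 and -0.67. With the block the adjusted p of ZNF331 was 0.0304.

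The ZNF628 to ZNF446 cluster at the end of the long arm held the members with the lowest log2 fold changes of the chromosome. Of 52 tested members 8 rose and 11 fell (15.4% and 21.2%, against 19.1% and 21.8% of all genes), with a median of 0.05. A gap of 0.5 Mb split it into ZNF628 to ZNF71 (14 members, median 0.27) and ZNF264 to ZNF446 (38 members, median -0.16). ZNF132 (ENSG00000131849, chr19:58432814-58440153), a KRAB zinc finger gene whose promoter is often methylated in prostate cancer, was at 91.0, 76.8, 79.7 and 76.3 in Control and at 13.6, 6.44, 10.4 and 24.7 in DZNep libraries. Its means were 80.9 ± 6.85 and 13.8 ± 7.87 (SD, n = 4 each), and its log2 fold change was -2.60 ± 0.37 (adjusted p = 0.000414). ZNF837 (ENSG00000152475, chr19:58367618-58381030) was at 171, 118, 129 and 165 against 20, 20.1, 25.9 and 47.2 (-2.40 ± 0.31, adjusted p = 0.000251). Neither gene's groups overlapped. The 200 bases before the start of both genes follow, with CG in capitals, of which there are 20 for ZNF837 and 16 for ZNF132.
ZNF837, chr19:58381031-58381230, minus strand: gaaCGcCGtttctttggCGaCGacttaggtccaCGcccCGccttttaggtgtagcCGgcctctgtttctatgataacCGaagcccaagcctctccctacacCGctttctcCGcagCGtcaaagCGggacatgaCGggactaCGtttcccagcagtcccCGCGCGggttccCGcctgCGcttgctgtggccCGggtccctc
ZNF132, chr19:58440154-58440353, minus strand: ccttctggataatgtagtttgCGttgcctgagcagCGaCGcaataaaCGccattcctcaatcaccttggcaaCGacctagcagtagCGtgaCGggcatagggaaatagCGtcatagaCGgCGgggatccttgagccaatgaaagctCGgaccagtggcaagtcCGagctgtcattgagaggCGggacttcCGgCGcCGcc

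These 2 genes lay in a stretch at the end of the chromosome in which ZNF8, ZNF497, ZNF837, ZNF132, ZNF324 and ZNF446 all fell. The other 4 had log2 fold changes between -0.84 and -0.44, and ZNF584, between ZNF837 and ZNF132, did not pass the test (-0.17). This stretch was singled out after its values were seen. ZNF324 shares 33% of its 100-base words with annotated genes that include the neighbouring ZNF446, so that unique reads may cover it in part. ZNF274, which is known to bind the 3′ ends of other zinc finger genes and to recruit SETDB1 there, lay close to the stretch. Its counts were 945, 644, 837 and 653 in Control and 599, 664, 630 and 697 in DZNep libraries, which overlap (log2 fold change -0.28 ± 0.16, adjusted p = 0.199). At the other end of the cluster, ZNF628 rose from 609, 442, 480 and 673 to 1177, 1140, 1040 and 1415 (1.09 ± 0.18, adjusted p = 0.000854). ZNF784 rose from 168, 276, 265 and 215 to 592, 532, 554 and 436 (1.16 ± 0.19, adjusted p = 0.000971). Both were higher in all 4 treated libraries than in any control, whereas ZNF865, which lies between them, fell by 1.24 on the log2 scale. Of the genes known for silencing by methylation in tumours, ZNF582 had a log2 fold change of -0.52 (adjusted p = 0.145), and ZNF671 was too low to test, at 4.46 to 31.2 in Control and 3.22 to 12.4 in DZNep libraries. ZNF579 and ZNF787, both among the 5 most counted members, had log2 fold changes of 0.77 and 0.42 that did not pass the test without pairing (adjusted p = 0.117 and 0.246). ZNF579 was higher with DZNep in all 4 pairs, by log2 ratios of 0.59, 1.15, 1.13 and 0.65, as was ZNF787, and with the block both passed (adjusted p = 4.35e-05 and 0.00449).

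On the short arm, 3 of 17 members of the ZNF653 to ZNF791 cluster rose and 4 fell, with a median of -0.30 and 13 negative values. These shares, 17.6% and 23.5%, were near the 19.1% and 21.8% of all genes. ZNF563 fell at both thresholds, from 49.3, 39.3, 37.6 and 37.6 to 24.5, 11.3, 14.7 and 7.87 (-1.49 ± 0.36, adjusted p = 0.00817), and its groups did not overlap. In the ZNF557 to ZNF846 cluster 3 of 12 fell and 0 rose by edgeR's test (1 at an unadjusted p under 0.05, 1 by DESeq2, 0 by limma), with a median of 0.15. ZNF358, 1 of the 3, was at 4565, 1753, 2424 and 5479 in Control and at 1472, 884, 1286 and 2179 in DZNep libraries. It was high in replicates 1 and 4 of both groups, the groups overlapped, and the log2 fold change of -1.32 ± 0.38 (adjusted p = 0.0182) missed the threshold for adjusted p without DZNep replicate 2 (0.0529) or 3 (0.0544). Part of its exons, 34.1%, overlap another annotated gene. ZNF846 fell from 67.8, 64.3, 70.8 and 46.2 to 25.4, 20.9, 17.3 and 36.0 (-1.36 ± 0.30, adjusted p = 0.00464). Of the 5 members of the ZNF302 to ZNF792 cluster 2 fell and 0 rose (0 at an unadjusted p under 0.05, 0 by DESeq2 and by limma), and ZNF599 did so at both thresholds, from 358, 294, 271 and 259 to 98.9, 52.4, 99.3 and 115 (-1.72 ± 0.25, adjusted p = 0.000446). Neither ZNF846 nor ZNF599 had groups that overlapped.

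Outside these 8 clusters, ZNF554 near the short-arm end (chr19:2819868-2836735) was at 277, 310, 308 and 269 in Control and at 86.2, 71.7, 94.1 and 55.1 in DZNep libraries, a log2 fold change of -1.94 ± 0.20 (adjusted p = 7.66e-05). ZNF574 (chr19:42068477-42081552), which has 18 fingers and no KRAB box by pattern, rose from 832, 876, 891 and 1139 to 2170, 2220, 2200 and 2751 (1.29 ± 0.15, adjusted p = 0.000156). In both genes the groups were far apart. ZNF541, a germ-cell chromatin protein, was near the limit of detection, with 0, 1.79, 3.58 and 9.67 in Control and 10.9, 12.9, 22.5 and 24.7 in DZNep libraries (2.12 ± 0.65, adjusted p = 0.0253). ZNF536, a brain-expressed gene in a long interval without other members, fell from 510, 575, 648 and 647 to 309, 373, 428 and 244 (-0.84 ± 0.19, adjusted p = 0.00622), without overlap. The 35 genes below the table's limit summed to 247 counts in Control and 379 in DZNep libraries, or 1.68 and 2.33 CPM, and 21 had more counts with DZNep and 8 had fewer, with no test.

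**Figure D4:**
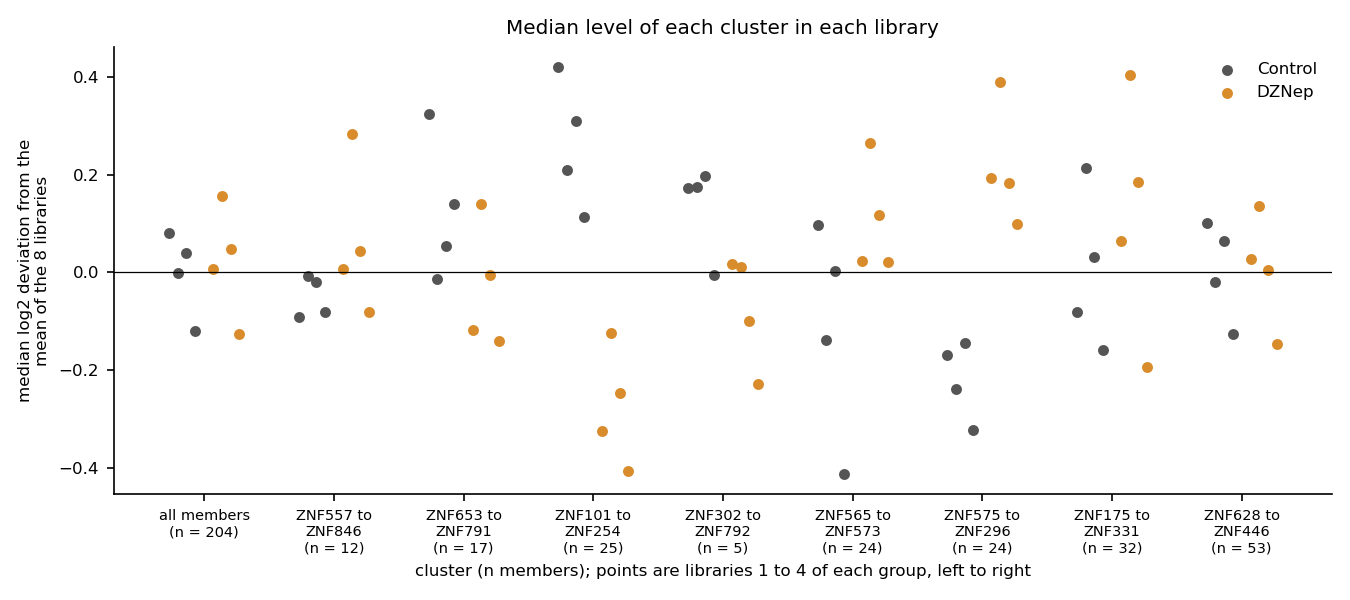
Median log2 deviation of a cluster's members from their own mean over the 8 libraries (y axis) for all members and for each of the 8 clusters (x axis), with 1 point per library. The 4 DZNep points of ZNF101 to ZNF254 lie between -0.41 and -0.13, below Control points between 0.11 and 0.42, and those of ZNF575 to ZNF296 lie above the Control points, while the points of both groups are interleaved over all members.

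Other features of the genes are given as descriptions. Of 171 members with a KRAB box found by pattern, 27 rose (15.8%) and 33 fell (19.3%). Of 32 members without, 7 rose (21.9%) and 10 fell (31.2%). Of all genes tested, 19.1% rose and 21.8% fell. Across the members, which are not independent replicates, Spearman's rho with the log2 fold change was 0.02 for the number of fingers (203 genes), 0.08 for promoter CG count (184 genes), -0.06 for the mean Control level and 0.08 for transcript GC content. Members that share over 5% of their 100-base words with other genes numbered 41, of which 6 rose (14.6%) and 12 fell (29.3%). Of the other 162, 28 rose (17.3%) and 31 fell (19.1%).

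The genes through which KRAB zinc fingers act were measured too, as a list of 24 corepressors, heterochromatin proteins and histone H3 lysine 9 methyltransferases. TRIM28 itself, which lies on chromosome 19, was at 18018, 22463, 18289 and 24213 in Control and at 20662, 19087, 17673 and 25014 in DZNep libraries. The groups overlapped, with a log2 fold change of -0.04 ± 0.17 (adjusted p = 0.883). SETDB1 rose from 2530, 2856, 3054 and 2561 to 3752, 4228, 3527 and 3791 (0.45 ± 0.13, adjusted p = 0.0208), with all treated libraries above the controls. Its partner ATF7IP rose as well, by a log2 fold change of 0.94 ± 0.15 (adjusted p = 0.000818).

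In total 9 of the 24 rose and 3 fell by adjusted p (37.5% and 12.5%, against 19.1% and 21.8% of all genes), and the median of the list was 0.25. With a block for the replicate number, 12 rose and 7 fell, where 28.8% and 30.2% of all genes did so. The H3 lysine 9 methyltransferases EHMT2 and SUV39H1 were among those that rose, with log2 fold changes of 0.79 and 0.70, as were the deacetylase HDAC1 and the histone H3.3 chaperone DAXX with 0.66 and 0.58. ATRX, the chromatin remodeler that works with DAXX at heterochromatin, was the only gene of the list past both thresholds. It was at 9490, 4095, 4964 and 11468 in Control and at 1890, 2044, 2052 and 2902 in DZNep libraries (log2 fold change -1.78 ± 0.32, adjusted p = 0.00164). All DZNep libraries were lower than any Control library, although the Control libraries of replicates 1 and 4 were the higher ones. MORC2, which acts with the HUSH complex, and TRIM24 also fell, by 0.62 and 0.72 on the log2 scale.

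**Figure D5:**
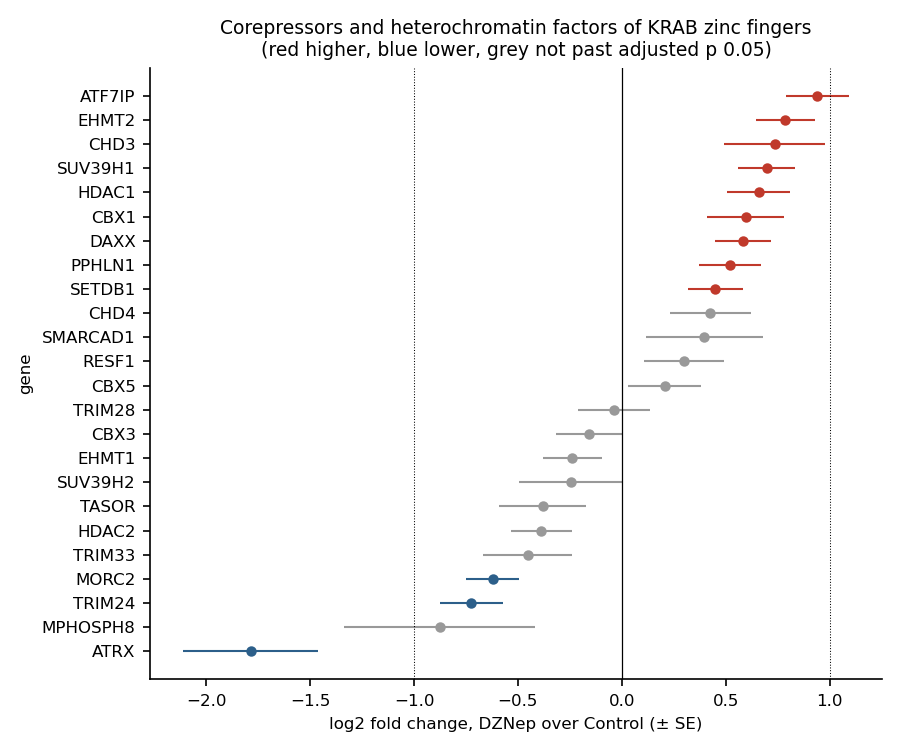
Log2 fold change of DZNep over Control with its standard error (x axis) for the 24 genes of the corepressor list (y axis), with genes past an adjusted p of 0.05 in red (higher) or blue (lower). TRIM28 sits at -0.04, 9 genes including SETDB1 rose, and ATRX at -1.78 lies beyond the others.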

How the data were processed

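RNA-seq was measured in 8 libraries of HEK293T cells, 4 with DZNep and 4 with vehicle (Control). Groups and replicate numbers came from the sample titles. By the published methods, Trimmomatic 0.36 trimmed the paired reads of 150 bp, STAR 2.5.2b aligned these to GRCh38, and featureCounts (Subread 1.5.2) kept unique exonic reads. The authors deposited these as raw counts of 57500 genes, without normalization. The second deposited table is a signal, each count over the size factor of its library, for 19118 genes with more than 80 counts in all. Annotation release and strandedness are not given in the sources used here, so overlapping and antisense genes are uncertain, and unique reads undercount near-identical copies.

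Counts were tested with edgeR 4.0.16 in R 4.3.3 (TMM, filterByExpr, quasi-likelihood test, Benjamini-Hochberg adjustment over 19171 genes), with thresholds of 0.05 for adjusted p and 1 for the size of the log2 fold change. The test was checked on simulated data. Alternatives were DESeq2 1.42.0, limma 3.58.1 on log2(normalized count + 1) or + 0.1, other size factors, other filters, other thresholds, a cluster gap of 0.5 Mb in place of 1 Mb, leaving out each library, and the replicate number as a block. Same-numbered libraries deviated together from their group means, with correlations of 0.139, 0.492, 0.429 and 0.677, and on this basis, which is the data alone, they were treated as pairs. Different numbers correlated too, at 0.534 for Control 1 with DZNep 4, and at 0.399 and 0.342 between replicates 2 and 3. The block thus also follows, in part, the split of replicates 1 and 4 from 2 and 3. Control 4 with DZNep 1 was at -0.0165. Libraries of a group differed by more than sampling noise and counted as 1 replicate each. Depth was 25043058 to 44902779 counts, which limits precision for genes with few reads, and standard errors cover the spread between libraries.

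Symbols, biotypes and positions came from GENCODE release 44, which matched 56410 identifiers. Promoters came from RefSeq on GRCh38.p14. Words of 12 bases were counted once per promoter on both strands. The 100-base words of each member's canonical transcript were compared with the GENCODE transcripts of all other genes. Named genes are the 8 highest and 8 lowest called members without overlap whose average log2 CPM was 0 or more, the called extremes of each cluster, the 5 most counted members, 11 with known roles, and called corepressors with TRIM28 and SETDB1. Others were named after their values were seen. The members, lists and clusters were chosen with earlier results of these data known. Some cell type markers are not reported here.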

Additional observations from a re-analysis of the deposited data

Results flagged for a closer look

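Among the 34 named genes, the 68 groups of 4 libraries were each examined for a library far from the other 3, and 4 groups held one, where chance gives about 1 in 20. DZNep replicate 4 had 2751 normalized counts of ZNF574, against 2170 to 2220 in the other treated libraries, and every one of these lay above the controls. ZNF568 was at 710 in DZNep replicate 2 and at 504 to 525 in the others. In the same library ZNF146 was at 6328, against 4950 to 5179. Control replicate 1 had 49.3 of ZNF563, against 37.6 to 39.3, counts at which 1 library moves the mean. No call of these 4 genes changed when that library was left out.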

How the results depend on the processing

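The counts of members past both thresholds, 11 higher and 21 lower, were 11 and 21 with DESeq2, 12 and 18 with limma, and 9 and 18 with at least 10 reads in every sample. Leaving out 1 library at a time gave 10 to 16 higher and 17 to 24 lower, and a median over the members of -0.01 to 0.06. They depended on the fold threshold. Without it 34 rose and 43 fell (12 fell in the ZNF101 to ZNF254 cluster and 7 rose in the ZNF575 to ZNF296 cluster), and when the fold itself was tested with glmTreat 1 was higher and 7 were lower (2 and 0 in these clusters). With the replicate number as a block, 12 were higher and 24 lower at both thresholds. By adjusted p alone the block gave 60 and 54, with 14 that fell in the ZNF101 to ZNF254 cluster and 13 that rose in the ZNF575 to ZNF296 cluster, a pairing with this threshold that was added after the data were seen. At both thresholds the block changed the call of no named gene, by adjusted p alone 4 named genes gained one (ZNF568, ZNF331, ZNF579 and ZNF787) and 0 lost one, and it added ZNF607 to the calls of the ZNF565 to ZNF573 cluster.

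The median of the ZNF101 to ZNF254 cluster was -0.49 with library sizes alone and between -0.78 and -0.54 without 1 library, and that of the ZNF575 to ZNF296 cluster lay between 0.37 and 0.53 without 1 library. The number of members called in these 2 clusters was 5 to 9 lower and 2 to 4 higher without 1 library. Of the 21 named members that passed both thresholds, 16 did so under every alternative but glmTreat, which kept 8. The others were ZNF91, ZNF628, ZNF227 and ZNF229, whose log2 fold change fell just under 1 in size without Control replicate 1 or 4 or DZNep replicate 1 (ZNF91), without Control replicate 2 (ZNF628) or without Control replicate 4 (ZNF227 and ZNF229), and ZNF358. No named member reversed its direction while called. Depth limits members with few reads, such as ZNF541 and ZNF671, and unique reads limit near copies. The causes of these differences were not tested.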
